A study of Mus musculus with 11 samples.

Results

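The cell cycle and DNA replication genes measured here were 39 named mouse genes in RNA-seq of embryonic hearts that lacked or carried Pde2A, the phosphodiesterase that hydrolyses cAMP and cGMP. The rule named them by their known roles in the cell cycle and held no measured value. The choice was made with earlier results of these data known. Each symbol was matched to 1 Ensembl identifier, 39 of the 55487 identifiers counted. The first group held 20 replication genes, which act in G1 and S phase, and the second held 19 mitotic genes, which act in G2 and M phase. The libraries came from 11 hearts of the line B6; 129P2-Pde2A<tm1Dgen>, with 5 Pde2A-/- (KO) and 6 Pde2A+/+ (WT) hearts. The embryos came from matings of heterozygous parents and were taken at E14.5, without treatment. The allele was constitutive, so every tissue of the embryo lacked Pde2A, and neither the sex nor the litter of a heart was given in the labels. The libraries held 35865537 to 42835382 reads assigned to genes on the sense strand, and 19.6% to 22.4% of reads were not assigned to a gene. Replicate names (KO A, B, D, 14 and 15; WT E, H, 6, 7, 8 and 11) followed the labels. The genotype labels could not be checked on Pde2a. It was assigned 0 to 2 reads in each heart and 7 in all, in WT as in KO, and in GENCODE M21 its whole span but for the last bases lies inside Gm45837, a gene of the same strand (0 to 2 reads, 4 in all). A read that falls on both genes is counted for neither, so these counts do not measure Pde2A expression in either genotype.

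A cell that divides first licenses its origins of replication in G1, when Cdc6 and Cdt1 load the MCM2-7 helicase on DNA. Cyclin E with its kinase then starts S phase, in which the helicase, the GINS complex, primase and the DNA polymerases copy the genome while ribonucleotide reductase and thymidylate synthase supply nucleotides. E2F1 and related factors switch on most of these genes through E2F sites in their promoters. The later wave, of cyclin B, CDK1, the Aurora and Polo kinases, the spindle checkpoint and the kinesins, peaks in G2 and M phase and is switched on through CHR elements and CCAAT boxes. Cardiomyocytes of the mid-gestation heart still divide, along with endothelial cells, fibroblasts and blood cells.

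Promoters of both waves are shown here because E2F sites and CHR elements differed in frequency between the 2 groups of members. The choice of members did not use the letters. These motifs are the ones through which the 2 waves are known to be switched on, so they do not test the grouping independently. RefSeq promoter windows of GRCm38.p6 (250 bases before to 50 bases after the start, 300 bases in all) were available for 32 of the 39 members. The motifs searched on both strands were E2F sites (TTTCCCGC, TTTCGCGC, TTTGCCGC and TTTGGCGC), CHR elements (TTTGAA and TTCGAA) and the CCAAT box (CCAAT), and matches that overlap each other were each counted. Capitals below mark these motifs in either direction. Mcm5, at chr8:75109259-75109558 (plus strand), and Mcm6, at chr1:128359656-128359955 (minus strand), are helicase subunits whose windows held E2F sites and CCAAT boxes but no CHR element. Mki67, at chr7:135716330-135716629 (minus strand), and Top2a, at chr11:99024140-99024439 (minus strand), are mitotic members whose windows held CHR elements and CCAAT boxes but no E2F site of this kind. Cdk1, at chr10:69352863-69353162 (minus strand), held all 3 kinds.
Mcm5: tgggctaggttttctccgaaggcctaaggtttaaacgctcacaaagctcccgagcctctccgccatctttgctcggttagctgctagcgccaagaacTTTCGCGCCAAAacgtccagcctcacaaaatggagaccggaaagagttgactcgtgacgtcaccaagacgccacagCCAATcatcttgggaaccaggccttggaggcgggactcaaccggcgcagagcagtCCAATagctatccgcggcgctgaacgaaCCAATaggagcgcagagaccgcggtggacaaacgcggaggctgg
Mcm6: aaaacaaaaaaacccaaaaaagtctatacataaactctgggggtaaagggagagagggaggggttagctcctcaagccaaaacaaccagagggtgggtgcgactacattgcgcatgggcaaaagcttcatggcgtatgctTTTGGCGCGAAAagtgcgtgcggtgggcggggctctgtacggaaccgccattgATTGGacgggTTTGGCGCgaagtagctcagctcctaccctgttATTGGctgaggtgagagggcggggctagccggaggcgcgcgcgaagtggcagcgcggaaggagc
Mki67: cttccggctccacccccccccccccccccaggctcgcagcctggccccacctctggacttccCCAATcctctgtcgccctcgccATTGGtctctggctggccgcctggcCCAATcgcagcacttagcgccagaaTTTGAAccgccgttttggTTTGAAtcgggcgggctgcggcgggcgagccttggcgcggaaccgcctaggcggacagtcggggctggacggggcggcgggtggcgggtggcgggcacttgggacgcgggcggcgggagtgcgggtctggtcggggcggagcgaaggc
Top2a: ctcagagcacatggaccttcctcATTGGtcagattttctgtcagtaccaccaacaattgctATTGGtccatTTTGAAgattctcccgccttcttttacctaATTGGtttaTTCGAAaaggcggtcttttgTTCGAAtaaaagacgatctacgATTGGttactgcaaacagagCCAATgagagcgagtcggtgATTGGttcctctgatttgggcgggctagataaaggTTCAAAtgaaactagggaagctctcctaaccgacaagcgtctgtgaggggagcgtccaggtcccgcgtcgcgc
Cdk1: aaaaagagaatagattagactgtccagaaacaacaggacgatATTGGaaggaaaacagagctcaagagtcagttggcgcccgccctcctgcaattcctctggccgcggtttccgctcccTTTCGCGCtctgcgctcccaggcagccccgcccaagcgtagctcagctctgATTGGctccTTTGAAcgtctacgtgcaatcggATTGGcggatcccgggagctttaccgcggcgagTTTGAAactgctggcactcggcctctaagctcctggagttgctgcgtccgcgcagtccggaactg

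E2F sites lay in the windows of 8 of 17 replication members (47.1%) and of 1 of 15 mitotic members, Cdk1, while 2.26% of the 32851 promoters in the table held one. CHR elements were found in 12 of 15 mitotic members (80%) and in 2 of 17 replication members, against 19.2% of all promoters. The CCAAT box occurred in 14 of 15 mitotic and 11 of 17 replication members, against 37.4% of all promoters. A member counted once if any of its windows held the motif, while the promoters in the table were counted singly. The 17 replication members had 19 windows and the 15 mitotic members 15. The windows of Ccne1, Rfc4, Tyms and Birc5 held none of these letters, nor did that of E2f1, which begins at a start 466 bases inside the annotated gene. No match says only that the letters are not in these windows. Among the members counted with an E2F site, Cdc6, Mcm7 and Uhrf1 held it only in windows at starts 350, 539 and 992 bases inside the annotated gene.

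**Figure D1:**
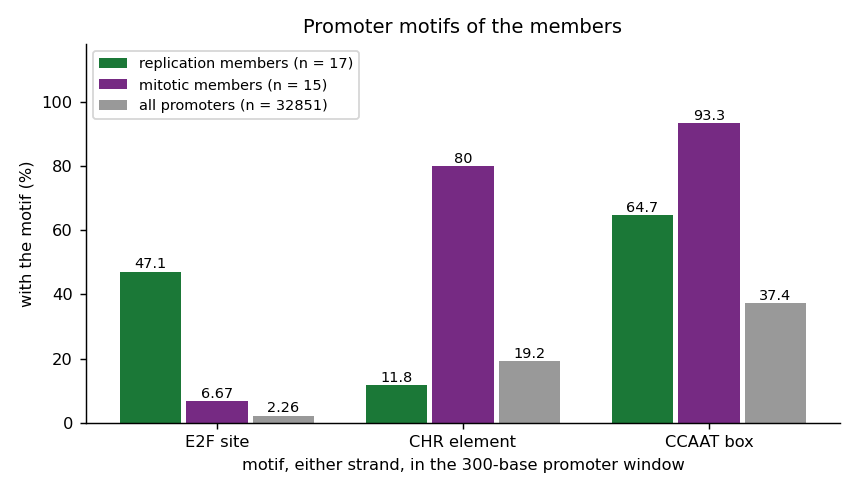
Share (%, vertical axis) of 17 replication members, 15 mitotic members and 32851 promoters that held an E2F site, a CHR element or a CCAAT box. Either strand of the 300-base window was searched. A member counted once if any of its windows held the motif. E2F sites were most frequent in replication members (47.1%) and CHR elements in mitotic members (80%).

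All 39 members were well expressed and passed the minimum of 10 counts in total. Per kilobase of merged exons, the highest mean levels in WT hearts were those of Rrm2, the small subunit of ribonucleotide reductase (86.3 ± 8.59 CPM per kb, SD, n = 6), of Ccna2, the cyclin A of S phase and mitosis (72.2 ± 4.36), and of Ccnb2, a cyclin B (62.9 ± 2.89). The lowest was Cdc6, the origin licensing factor, at 5.49 ± 0.463 CPM per kb. On this scale the median of the mitotic members was 33.3 CPM per kb and that of the replication members 26.1. Neighbours in the order of levels were seldom apart by more than their spread: 10 of 38 adjacent pairs differed by more than the sum of their SDs.

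The test between genotypes was made across all genes with edgeR's quasi-likelihood test and Benjamini-Hochberg adjustment, and called a gene at an adjusted p under 0.05. It called 2 of the 39 members, Mki67 as higher and Gins2 as lower in KO hearts. Among the 24177 genes tested, 14.6% were called in either direction, 8.93% as higher and 5.67% as lower. Of the 20 replication members, 0 were called higher and 1 lower, and 5 were lower at an unadjusted p under 0.05. Of the 19 mitotic members, 1 was called higher and 0 lower, while 2 were higher and 1 was lower at an unadjusted p under 0.05. Of the 24177 genes tested, 3761 were higher and 3607 lower at that unadjusted p. DESeq2 called 0 replication members higher and 2 lower, and 1 mitotic member higher and 0 lower, where it called 16.4% of the 17013 genes with an adjusted p as higher and 13.8% as lower. No member passed both the adjusted p and a 2-fold change (2.59% of all genes did). Mki67 was the single member whose CPM did not overlap between the genotypes (8.49% of all genes did not overlap). In whole hearts, fewer cells of a dividing type and less RNA per cell cannot be told apart.

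The log2 fold change (KO over WT) was negative for 19 of 20 replication members, with a median of -0.13 and a range from -0.32 for Gins2 to 0.01 for Pola1, the catalytic subunit of DNA polymerase alpha. For the mitotic members it was negative in 11 of 19, with a median of -0.02 and a range from -0.10 for Plk1 to 0.47 for Mki67. Over all genes tested the median was -0.02 and 53.0% were negative. The 95% intervals of the 19 replication members other than Gins2 lay between -0.55 and 0.20 on the log2 scale, and those of the 18 mitotic members other than Mki67 between -0.24 and 0.37.

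**Figure D2:**
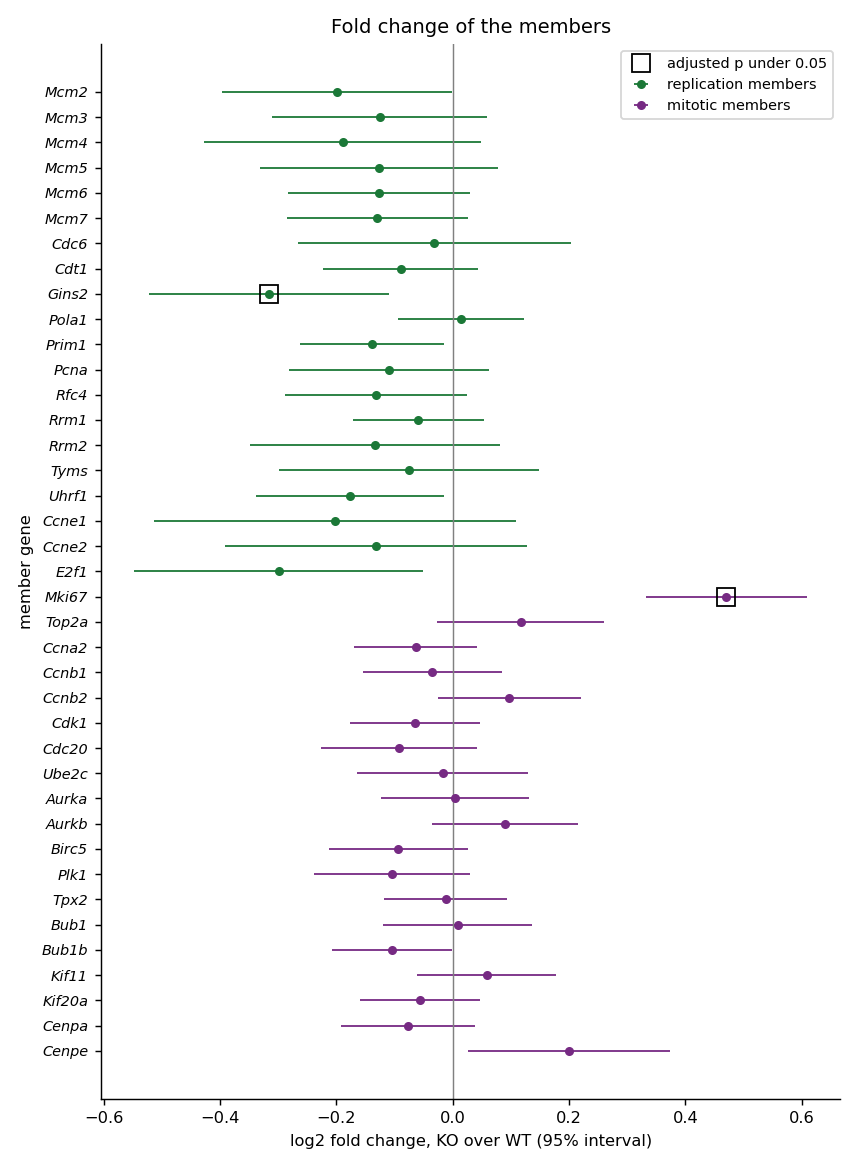
Log2 fold change of each member, KO over WT (horizontal axis), with its 95% interval from the fit across all genes (5 KO and 6 WT hearts). Replication members are green, mitotic members purple, and squares mark the 2 members past the adjusted p, Gins2 at -0.32 and Mki67 at 0.47.

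Among the helicase subunits, Mcm2 was measured at 184.5, 188.8, 150.5, 136.3 and 141.0 CPM in KO hearts A, B, 14, D and 15. In WT hearts it ranged from 169.6 to 210.9 CPM with a median of 181.2. KO hearts 14, D and 15 lay below every WT heart and A and B lay within the WT range. Its mean was 160.2 ± 24.7 CPM in KO (SD, n = 5) and 183.9 ± 15.1 in WT (n = 6), a log2 fold change of -0.20 ± 0.09 (SE) with an adjusted p of 0.160. The other subunits, Mcm3, Mcm4, Mcm5, Mcm6 and Mcm7, had log2 fold changes from -0.19 to -0.13 and none passed the test.

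Gins2, a subunit of the GINS complex that joins the helicase at the fork, was at 35.1, 35.6, 27.7, 24.6 and 26.3 CPM in KO hearts A, B, 14, D and 15. In WT hearts it ranged from 34.6 to 40.7 CPM, with a median of 37.4. Hearts 14, D and 15 were again the low ones, and A and B fell inside the WT range. The log2 fold change was -0.32 ± 0.10 (SE), with an edgeR adjusted p of 0.0425. This call depended on single hearts: it held without KO A or KO B and was lost without any one of the other 9 (KO 14, D and 15, and WT E, H, 6, 7, 8 and 11), with adjusted p values up to 0.104. On the opposite strand 67.3% of the exon bases of Gins2 lay under Gse1, and counting both strands gave a log2 fold change of -0.29 with an adjusted p of 0.0410.

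Prim1, the catalytic subunit of primase, was the third smallest of the replication members in adjusted p. It was at 37.6, 39.7, 34.3, 34.3 and 38.0 CPM in KO hearts A, B, 14, D and 15, against 36.5 to 43.8 CPM (median 40.4) in WT. Only 14 and D lay below all WT hearts, and its log2 fold change was -0.14 ± 0.06 with an adjusted p of 0.120. Pcna, the sliding clamp of the polymerases, was at 146.2, 155.3, 125.0, 118.7 and 115.2 CPM in the same hearts, against 127.8 to 153.2 CPM (median 141.9) in WT. KO B was above every WT heart and 14, D and 15 below, with a log2 fold change of -0.11 ± 0.08 and an adjusted p of 0.390. The other genes of origin licensing, synthesis and nucleotide supply (Cdc6, Cdt1, Pola1, Rfc4, Rrm1, Rrm2 and Tyms) had log2 fold changes from -0.13 to 0.01, none past the test.

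Uhrf1, which brings the maintenance DNA methyltransferase to newly copied DNA, was at 135.7, 146.4, 117.1, 116.6 and 112.5 CPM in KO hearts A, B, 14, D and 15. WT hearts ranged from 130.9 to 154.4 CPM with a median of 139.6. The same 3 KO hearts were below the WT range, and the log2 fold change was -0.18 ± 0.07 with an adjusted p of 0.128, or 0.0310 when KO B was left out.

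Ccne1, the cyclin E that starts S phase, was at 34.7, 37.8, 27.1, 23.0 and 19.6 CPM in KO hearts A, B, 14, D and 15. WT hearts ranged from 29.4 to 38.1 CPM, with a median of 32.3. KO 15 held the lowest value of any heart, and A and B were inside the WT range. The spread in KO was wide (28.5 ± 7.71 CPM, against 32.8 ± 2.99 in WT) and the log2 fold change of -0.20 ± 0.14 had an adjusted p of 0.379. Ccne2, the second cyclin E, had a log2 fold change of -0.13 ± 0.12 with an adjusted p of 0.508.

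E2f1, the transcription factor of the replication wave, was at 46.0, 47.4, 33.4, 34.1 and 28.5 CPM in KO hearts A, B, 14, D and 15. In WT hearts it ranged from 42.7 to 49.3 CPM, with a median of 47.5. A and B sat among the WT hearts, while 14, D and 15 were below all of them. The log2 fold change was -0.30 ± 0.12 with an adjusted p of 0.0970, which missed the threshold. It was called with DESeq2 (adjusted p of 0.0476), without KO A (0.0356) and without KO B (0.0250).

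In the mitotic group, Mki67, which encodes the proliferation antigen Ki-67, was at 448.9, 542.1, 527.4, 508.4 and 604.2 CPM in KO hearts A, B, 14, D and 15. In WT hearts it ranged from 360.6 to 397.8 CPM, with a median of 378.3. All 5 KO hearts were above all 6 WT hearts, including A and B. The mean was 526.2 ± 56.2 CPM in KO and 379.7 ± 14.4 in WT, 1.39-fold higher, with a log2 fold change of 0.47 ± 0.06 and an edgeR adjusted p of 4.80e-04. Mki67 was called without any one of the 11 hearts, with log2 fold changes from 0.42 to 0.53. It lies 34.2 Mb from Pde2a on chromosome 7, and 1 of the 24 genes tested within 2 Mb of it, Mki67 left out, was called. Of the other members on that chromosome, Rrm1 lies 0.929 Mb from Pde2a with 25 of 75 neighbours called (33.3%), Plk1 20.6 Mb with 12 of 57 (21.1%) and Ccne1 63.3 Mb with 1 of 18 (5.56%), against 14.6% of all genes. Relative to the mean of the other 18 mitotic members in the same heart, Mki67 was higher by 1.99 to 2.23 on the log2 CPM scale in KO and by 1.53 to 1.72 in WT.

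Cenpe, the kinetochore kinesin of chromosome alignment, had the next smallest adjusted p of the mitotic members. It was at 112.5, 114.1, 126.4, 122.8 and 151.3 CPM in KO hearts A, B, 14, D and 15, against 96.4 to 119.0 CPM (median 110.6) in WT. KO 14, D and 15 lay above every WT heart, with a log2 fold change of 0.20 ± 0.08 and an adjusted p of 0.113. Bub1b, the spindle checkpoint kinase BubR1, was at 178.6, 167.6, 176.6, 167.2 and 183.7 CPM, against 172.0 to 197.0 CPM (median 190.6) in WT. B and D were below the WT range, and the log2 fold change of -0.10 ± 0.05 had an adjusted p of 0.160.

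Top2a, the topoisomerase that untangles chromosomes, was at 537.5, 542.9, 587.3, 583.5 and 680.4 CPM in KO hearts A, B, 14, D and 15, against 493.0 to 573.9 CPM (median 553.5) in WT. Its log2 fold change was 0.12 ± 0.07 with an adjusted p of 0.261. KO 14, D and 15 exceeded every WT heart while A and B did not. Ccnb2 was at 91.7, 101.4, 107.5, 99.98 and 114.7 CPM in the same hearts, against 89.7 to 102.3 CPM (median 96.1) in WT. Its log2 fold change was 0.10 ± 0.06 with an adjusted p of 0.275.

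Ccnb1, the main mitotic partner of CDK1, was at 95.2, 100.7, 107.5, 95.9 and 106.5 CPM in KO hearts A, B, 14, D and 15. WT hearts ranged from 93.3 to 112.8 CPM with a median of 102.4. Every KO heart lay within the WT range, and the log2 fold change was -0.04 ± 0.06 with an adjusted p of 0.727. The remaining 13 mitotic members were the cyclin A gene Ccna2, Cdk1, the Aurora kinases Aurka and Aurkb with Birc5 (survivin), Plk1, the checkpoint kinase Bub1, the motors Kif11 and Kif20a, the spindle factor Tpx2, the ubiquitin pathway genes Cdc20 and Ube2c, and the centromeric histone Cenpa. Their log2 fold changes ran from -0.10 to 0.09 and none passed the test.

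**Figure D3:**
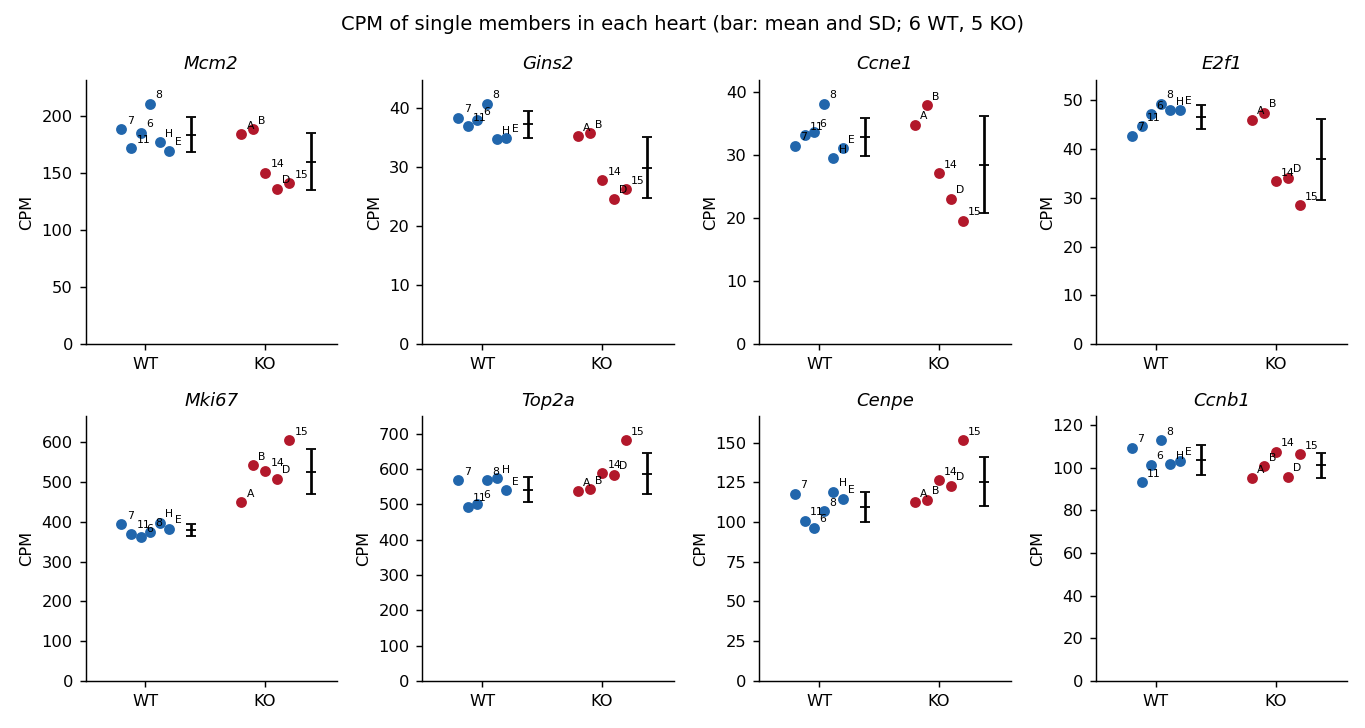
CPM (vertical axis, from 0) of 8 members in each heart, WT in blue and KO in red, with the replicate name beside each point and a bar for the mean and SD (6 WT, 5 KO). In Mcm2, Gins2, Ccne1 and E2f1 the KO hearts 14, D and 15 lay below every WT heart, while in Mki67 all 5 KO hearts lay above every WT heart.

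The replication members shared an order of the KO hearts. Their mean log2 CPM was 6.50 in KO A, 6.51 in KO B, 6.22 in KO 14, 6.14 in KO D and 6.10 in KO 15, against 6.37 to 6.57 in WT hearts. The level in A and B was inside the WT range, and the other 3 KO hearts were below it. Of the 20 replication members, 16 in KO 14, 18 in KO D and 16 in KO 15 lay below every WT heart, compared with 0 in KO A and 0 in KO B. In A and B, 3 and 4 replication members lay above every WT heart. Hearts 14, D and 15 were the lowest 3 KO hearts for 18 of 20 replication members and for 0 of 19 mitotic members, a description made after the values were seen. The shares of all genes with these patterns are not given here, so the patterns cannot be called particular to the replication members. Over all genes, the number called was 5052 without KO A and 4438 without KO B, against 1702 to 1918 without KO 14, D or 15 and 3532 with every heart.

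The mitotic members did not follow this order. Their mean log2 CPM was 6.93 in KO A, 6.998 in B, 7.06 in 14, 6.96 in D and 7.12 in 15, against 6.90 to 7.10 in WT. The difference within a heart, replication minus mitotic, was -0.43 in KO A, -0.49 in B, -0.85 in 14, -0.82 in D and -1.02 in 15. In WT hearts it stayed between -0.60 and -0.52, so A and B lay above every WT heart and the other 3 below. The mean was -0.72 ± 0.25 (SD, n = 5) in KO and -0.55 ± 0.03 (n = 6) in WT, and no test was made over the members.

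**Figure D4:**
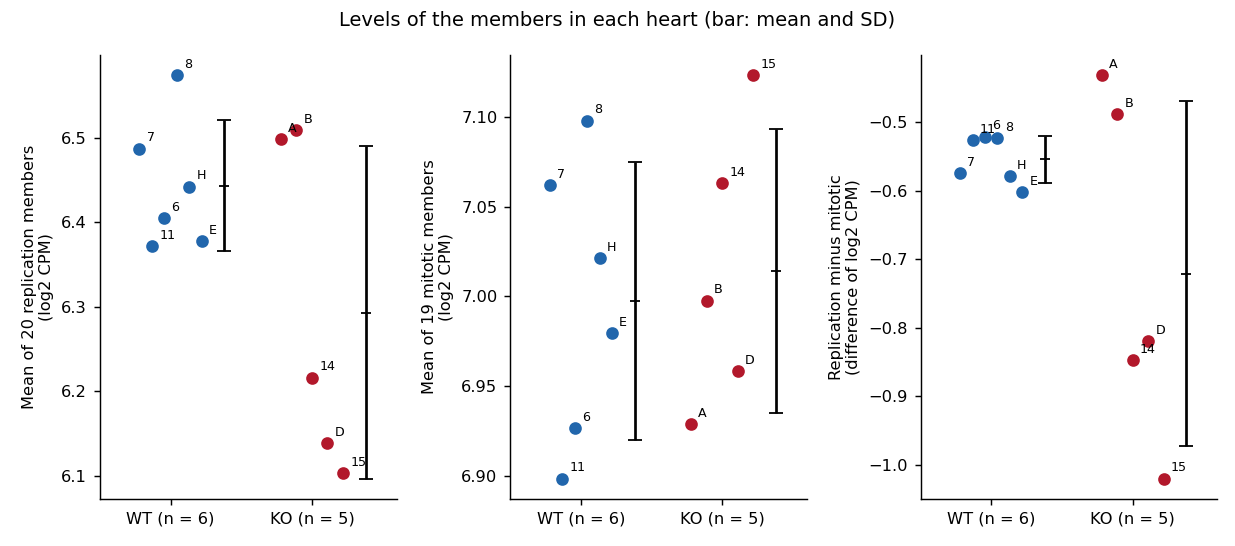
Mean log2 CPM of the 20 replication members, of the 19 mitotic members, and their difference in each heart (vertical axes), with replicate names and a bar for the mean and SD of 6 WT and 5 KO hearts. The difference was between -0.60 and -0.52 in WT hearts and between -1.02 and -0.43 in KO hearts.

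The spread between hearts followed the same division. The coefficient of variation of the replication members had a median of 14.3% in KO and 6.54% in WT hearts, and was larger in KO for 19 of 20. For the mitotic members the medians were 6.21% and 6.59%, and it was larger in KO for 8 of 19. Over the 10053 genes that averaged 10 CPM or more, the medians were 8.21% and 6.01%, and 65.8% were more variable in KO.

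**Figure D5:**
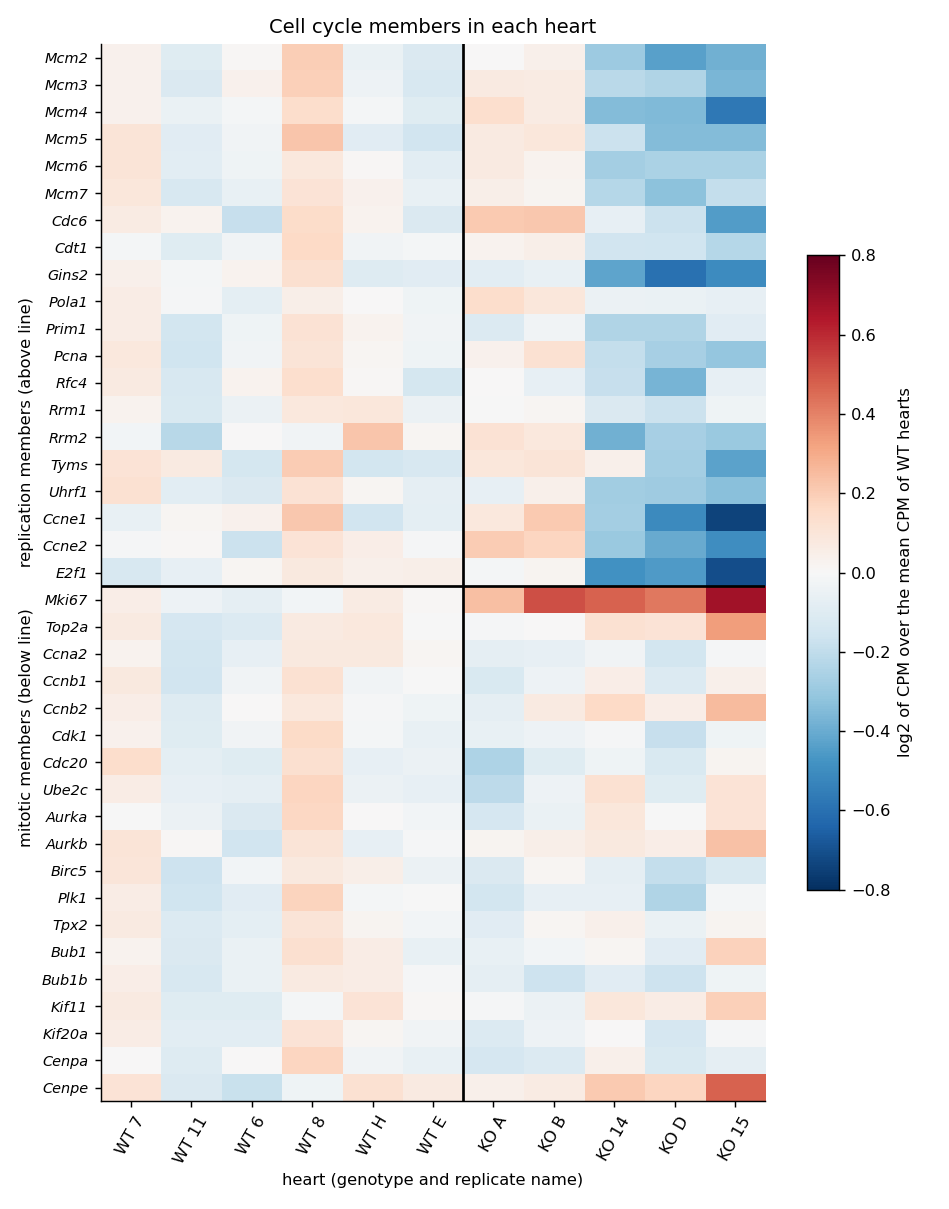
Log2 ratio of CPM to the mean CPM of WT hearts (colour) for each member (rows) in each heart (columns). The replication rows run from blue to nearly white in KO 14, D and 15, below the WT mean except for Tyms in KO 14 (43.7 CPM against a WT mean of 42.5). Rrm1 in KO 15 (296.6 CPM against a WT mean of 303.6) is one of the nearly white cells. In KO A and B the replication rows are near white, pale blue or red. The Mki67 row is red in all 5 KO hearts.

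Other values moved with the same KO hearts, and their part in the result was not tested. The summed CPM of 8 fibroblast markers was 7242 in KO A and 7097 in KO B, against 9082 in 14, 11494 in D and 9885 in 15, with 5990 to 11079 in WT, and 3 of 8 markers were called higher. Over 10 macrophage markers it was 237 in A and 269 in B, against 299 to 315 in the other 3 KO hearts and 119 to 189 in WT, and 9 of 10 markers were called higher. Both sums were thus lowest in A and B among the KO hearts. Erythroid markers did not follow that order, with the lowest KO sum in A (626 CPM) and the highest in B (1155), against 281 to 607 in WT, and 7 of 9 matched markers were called higher. The erythroid sum mixes directions: Alas2 had a lower mean in KO (-0.60 ± 0.32, adjusted p of 0.2205) and gave 359.6 CPM of the 607 in WT 11. Of all genes tested, 8.93% were called higher and 5.67% lower. Cardiomyocyte marker sums were 36872 to 43259 CPM in KO and 36088 to 49158 in WT, with 3 of 12 called lower, so the labelled tissue was present in every heart. That sum hides single markers that divided the KO hearts. Tnnt2, the cardiac troponin T, was at 4594, 4877, 4135, 3792 and 4016 CPM in KO A, B, 14, D and 15, against 4326 to 5731 in WT (-0.25 ± 0.09, adjusted p of 0.0874). Myl2, the ventricular myosin light chain, was at 3694, 3805, 2653, 2535 and 2223 CPM in the same hearts, against 3119 to 4754 in WT (-0.42 ± 0.15, adjusted p of 0.0712). In both, only 14, D and 15 lay below every WT heart, and in Myh6, the alpha myosin heavy chain, only these 3 lay above every WT heart. Hearts 14, D and 15 were the lowest 3 KO hearts for 5 of 12 cardiomyocyte, 4 of 10 endothelial and 2 of 9 thymocyte markers, and for none of 8 fibroblast, 10 macrophage, 9 erythroid and 8 liver markers. They were the highest 3 for 3 of 12 cardiomyocyte, 2 of 10 endothelial, 2 of 9 thymocyte, 4 of 8 fibroblast, 8 of 10 macrophage, 0 of 9 erythroid and 4 of 8 liver markers. The shares of all genes with these orders are not given here, so the orders cannot be called particular to any of these lists. Endothelial markers (4 of 10 called higher) summed to 1526 to 1643 CPM in KO and 1219 to 1448 in WT. Single WT hearts also stood apart. Thymocyte markers summed to 107 CPM in WT 7 and to 6.42 to 9.20 in the other 10 hearts. Without WT 7 the replication members had 0 calls and a median of -0.12, with 1 mitotic member, Mki67, called. The replication members also had 0 calls without any other single WT heart. Of the thymocyte markers Cd3e, Cd3d, Cd8b1, Rag1, Ptcra and Themis were at 0 in at least 1 heart. Liver markers summed to 115 CPM in WT E, to 38.8 to 44.4 in WT 11, WT H and KO D, and to 2.77 to 6.36 in the others, with Apoa1, Serpina1a, Fgb and Apoh at 0 in at least 1 heart.

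The names of the hearts, a letter or a number, also divided the replication members. Whether the naming marks a batch is not stated in the labels. Between the 3 KO and 2 WT hearts named by a letter, 0 replication and 0 mitotic members were called, with medians of -0.02 and -0.06 and 0.466% of all genes called. At an unadjusted p under 0.05 these were 0 replication members and 1 mitotic member. The share of all genes at that unadjusted p is not given here. Between the 2 KO and 4 WT hearts named by a number, 10 replication members were called lower (Mcm2, Mcm3, Mcm4, Mcm6, Gins2, Rrm2, Uhrf1, Ccne1, Ccne2 and E2f1) and 0 higher, with a median of -0.28. In the latter comparison 2 mitotic members, Mki67 and Cenpe, were called higher, with a median of 0.04, and 18.6% of all genes were called, 10.4% as higher and 8.17% as lower. Hearts A and B carry letters and 14 and 15 numbers, but D, which was as low as 14 and 15, carries a letter. With the naming as a covariate across all 11 hearts, the log2 fold change of Mki67 was 0.48 (adjusted p of 7.49e-04), that of E2f1 -0.38 (0.0290) and that of Gins2 -0.33 (0.0505).

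The other replication genes, a list of 41 further genes of licensing, synthesis and fork factors, had a median log2 fold change of -0.14. In this list 33 of 41 were negative, 0 were called higher and 6 lower (Gins1, Cdc7, Pold2, Pold3, Rpa2 and Dut), against 8.93% and 5.67% of all genes. In the fits that omitted 1 heart, the calls of Pold3 and Dut held in all 11, that of Pold2 in 3 (lost at adjusted p values of 0.0508 to 0.108) and that of Rpa2 in 2 (lost at 0.0538 to 0.111, held without KO A or KO B). Gins1, a partner of Gins2 in the GINS complex, was at 19.8, 18.7, 13.6, 14.8 and 14.2 CPM in KO hearts A, B, 14, D and 15, against 20.03 to 23.2 CPM in WT (log2 fold change -0.39 ± 0.10, adjusted p of 0.0197, between 0.0501 and 0.0564 without KO 14, D or 15). Dut, the dUTPase that keeps uracil out of DNA, was at 83.7, 79.5, 69.3, 65.6 and 62.2 CPM against 85.5 to 100.4 (-0.33 ± 0.08, adjusted p of 0.0136). Both genes were below every WT heart in all 5 KO hearts, lowest in 14, D and 15. Cdc7, the kinase that fires origins, was at 28.3, 25.4, 21.1, 21.1 and 19.3 CPM against 26.4 to 30.3 (-0.30 ± 0.09, adjusted p of 0.0403). The call of Cdc7 was lost without any one of KO 14, D and 15 and WT H, 6, 7, 8 and 11, with adjusted p values up to 0.104.

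Of 44 other mitotic genes, 2 were called higher and 5 lower (Spc24, Mad2l1, Melk, Ckap2 and Racgap1), with a median of -0.0035. Over all genes, 8.93% were called higher and 5.67% lower. Cdc25b, a phosphatase that activates CDK1, was at 72.2, 90.6, 97.2, 91.8 and 103.7 CPM in KO hearts A, B, 14, D and 15, against 50.2 to 72.9 CPM in WT (0.53 ± 0.10, adjusted p of 0.00554). The second, Nusap1, had a log2 fold change of 0.20 ± 0.06 with an adjusted p of 0.0495, and its call held in 1 of 11 fits that left out 1 heart (without KO A) and was lost at 0.0517 to 0.126 in the others. Racgap1 also held in 1 of 11 (without WT 11, lost at 0.0526 to 0.122), Melk in 9 (lost without KO 14 or D, at 0.0519 to 0.0589), and Spc24, Ckap2 and Cdc25b in all 11. Mad2l1, of the spindle checkpoint, was at 90.1, 86.4, 78.6, 73.7 and 72.1 CPM against 87.3 to 101.5 (-0.25 ± 0.07, adjusted p of 0.0246, lost without KO 14, D or 15 or WT 8 at 0.0506 to 0.0710). Spc24, of the kinetochore, was at 45.0, 44.2, 44.9, 38.9 and 42.0 CPM against 47.2 to 54.9 (-0.25 ± 0.05, adjusted p of 0.0103). This list held calls in both directions.

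Among regulators of the G1 to S transition, 0 of 6 G1 cyclins and CDKs passed edgeR's test in either direction. At an unadjusted edgeR p under 0.05, 2 of 6 were lower, as were 3607 of the 24177 genes tested. DESeq2 called 0 of them higher and 2 lower, Cdk2 and Cdk4. It called 16.4% of the genes with a DESeq2 adjusted p as higher and 13.8% as lower. Of the 7 CDK inhibitors, 2 were called higher and 0 lower, against 8.93% and 5.67% of all genes. Cdkn1a (p21) was at 29.2, 42.2, 42.2, 47.2 and 58.6 CPM in KO hearts A, B, 14, D and 15, against 27.0 to 29.3 CPM in WT (0.63 ± 0.13, adjusted p of 0.00667). KO A lay within the WT range and the other 4 above it. Cdkn1b (p27) was at 111.2, 106.2, 123.1, 162.3 and 178.2 CPM against 88.9 to 109.1 (0.45 ± 0.12, adjusted p of 0.0305), and this call was lost without KO D or 15 or WT 6, 8 or 11, at 0.0516 to 0.0907. D and 15, low in the replication members, held the highest Cdkn1b of all hearts.

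Of 18 genes of cell cycle transcription (the E2F, DP, pocket protein, FOXM1, MYBL2 and LIN families), 4 were called higher (Rb1, E2f2, E2f8 and Tfdp2) and 0 lower. Over all genes, 8.93% were called higher and 5.67% lower. DESeq2 called 4 of the 18 higher and 4 lower (against 16.4% and 13.8% of all genes). E2f2, a second activator of the E2F family, was at 37.2, 61.7, 47.3, 44.4 and 43.1 CPM in KO hearts A, B, 14, D and 15, against 18.7 to 31.3 CPM in WT (1.002 ± 0.14, adjusted p of 6.41e-04). Rb1, the retinoblastoma pocket protein that restrains E2F, was at 30.5, 37.5, 32.7, 38.9 and 40.0 CPM against 20.8 to 27.0 (0.55 ± 0.09, adjusted p of 0.00151). Tfdp2, a DP partner of E2F, was at 62.2, 68.7, 65.0, 80.6 and 85.3 CPM against 45.0 to 60.4 (0.43 ± 0.10, adjusted p of 0.0140). In these 3 genes all 5 KO hearts lay above all WT hearts, whereas E2f1 was at WT level in A and B and below it in the others. The summed erythroid markers were also higher in every KO heart than in every WT heart, from 626 to 1155 CPM against 281 to 607, and their part in these 3 genes was not tested. This sum includes Alas2, which had a lower mean in KO (124.3 CPM, against 189.0 in WT).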

How the data were processed

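Stranded mRNA-seq libraries of 5 KO and 6 WT embryonic hearts had been sequenced single-end. The authors aligned the reads with STAR to GRCm38 (mm10) and deposited gene counts per library, as the labels and the study's methods state. The STAR version and the annotation release were not given in the sources used here. The sense-strand column was used, unassigned reads (19.6% to 22.4%) were left out, and identifiers were named with GENCODE M21. Members and gene lists were chosen with earlier results of these data known. Genes with 10 or more counts in total (24177) were tested with edgeR 4.0.16 (R 4.3.3; TMM, quasi-likelihood, two-sided, Benjamini-Hochberg over all genes). CPM used TMM library sizes, log2 CPM for means over members had a prior count of 2, and intervals were 95%. The common biological coefficient of variation was 16.8%. Deposited samples were taken as separate hearts, and p-values set the difference between genotypes against the spread between hearts. Litter was not given in the labels, so the test took no account of it. Alternatives were DESeq2 1.42.0, RLE size factors, filterByExpr, no filter, both strands, removal of 14 globin genes, the naming style as a covariate or split, a prior count of 0.5, a shorter promoter window, and leaving out each heart. Both tools were tested on simulated counts with known 2-fold changes and the same spread for every gene. They recovered nearly all changed genes, edgeR kept its false calls near the nominal share, and DESeq2 exceeded it in every simulated draw, so calls made by DESeq2 alone carry less weight. Changes as small as those of the members were not simulated, so the draws do not say how often such changes would be called. Values in every heart are given for Mcm2, Pcna, Ccne1, Mki67, Top2a and Ccnb1 as common markers and for the 5 members with the smallest adjusted p in each group. In other cell cycle lists up to 3 called genes with the largest log2 fold change and a mean of at least 1 CPM are described. Pcna, Tyms, Ccnb1 and Ccnb2 have pseudogenes that could share reads, and Mcm7 and Top2a overlap other genes on the same strand over 3.89% and 1.35% of their exon bases.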

Additional observations from a re-analysis of the deposited data

Results flagged for a closer look

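In 84 groups of hearts (each member, and the means over members, in KO and in WT), 4 held 1 heart set apart from the rest of its genotype by a gap that is large for its range, and chance alone sets apart about 1 group in 20. Cdt1 was at 66.6 CPM in WT 8, with the other WT hearts from 55.8 to 59.1. Cenpa was at 134.5 CPM in WT 8, with the other WT hearts from 111 to 120. Cdk1 was at 130.2 CPM in KO D, with the other KO hearts from 142 to 147. Aurkb was at 65.4 CPM in KO 15, with the other KO hearts from 56.2 to 58.7. None of these 4 genes was called between the genotypes.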

How the results depend on the processing

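No paired analysis was possible because the KO and WT hearts share no replicate name. Mki67 was called higher in every alternative fitted to all 11 hearts and in all 11 that left out 1 heart, and missed the threshold only among the 5 hearts named by a letter (0.35 ± 0.09, adjusted p of 0.194). The number of replication members called lower was 2 with DESeq2 and 0 to 3 when 1 heart was left out, and their median stayed between -0.18 and -0.09 in these fits and those to all hearts, against -0.02 among hearts named by a letter and -0.28 among those named by a number. DESeq2, which made more false calls than its nominal share on simulated counts, called 1 other replication gene higher and 13 lower, and 4 other mitotic genes higher and 10 lower, with 16.4% of all genes called higher and 13.8% lower. In the promoter window cut to 150 bases before and 50 after the start, 1 replication member held a CHR element and 0 held it with a CCAAT box. The sign of 7 members near zero, none of them called, turned in fits to all hearts or without 1 heart: Aurka was at -0.0011 with filterByExpr and Ube2c at 0.0192 with the naming covariate, and leaving out 1 heart gave -0.0200 to 0.0444 for Aurka, -0.0539 to 0.0314 for Ube2c, -0.0135 to 0.0362 for Pola1, -0.0333 to 0.0141 for Tpx2, -0.100 to 0.0574 for Cdc6, -0.124 to 0.00223 for Tyms and -0.0357 to 0.0400 for Bub1. Among hearts named by a letter the sign of 11 members turned, none of them called and not all near zero with every heart (Ccne1 at 0.07, Mcm4 at 0.02 and Cenpe at -0.0068 there), and among those named by a number the sign of 5. The cause of these changes was not tested.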
